A study of Mus musculus with 8 samples.

Results

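The expression of 9 genes for storage, transport and metabolism of vitamin A was examined in the livers of db/db mice and control mice. The genes were Rbp4, Ttr, Lrat, Rdh7, Rdh11, Dhrs3, Dhrs4, Cyp26a1 and Retsat. They were chosen by name from the 22564 rows with values in the deposited table of protein-coding genes, and each symbol matched 1 row. All 9 reached the minimum for testing, which was 1 FPKM or more in 4 or more libraries, as did 9863 genes in all. FPKM is the number of fragments of a gene divided by its length and by the size of the library, so that levels of different genes can be set side by side.

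The liver holds most of the vitamin A of the body. Retinol that reaches the liver is esterified by lecithin retinol acyltransferase (LRAT), chiefly for storage in the lipid droplets of hepatic stellate cells. Hepatocytes secrete retinol on its plasma carrier RBP4, which travels in a complex with transthyretin. Inside cells, dehydrogenases and reductases interconvert retinol and retinal, aldehyde dehydrogenases oxidize retinal to retinoic acid, the ligand of the RAR receptors, and CYP26 enzymes hydroxylate and so inactivate retinoic acid.

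RNA was sequenced from 4 liver libraries of db/db mice (replicates 1, 2, 4 and 5, called db1, db2, db4 and db5) and 4 of control C57BL/6 mice (replicates 5, 6, 7 and 8, called C5 to C8). The db/db mouse carries a natural defect of the leptin receptor gene and is used as a genetic model of obesity, diabetes and fatty liver. Both groups are labelled as untreated, with no age or sex and no strain background for db/db. In the study's methods the db/db mice had a different supplier and a lower age at purchase than the C57BL/6J mice, and it is not stated that the present controls were taken from the latter, so that strain, source and age cannot be told apart from the receptor defect. Nothing in the labels states that each library is a separate animal, and p-values measure the spread between these libraries. Summed FPKM was 555661 to 602391 in the db/db group and 641355 to 676884 in the control group. Absolute depth is unknown, and relative depth was 0.81 to 1.1 times that of C5. Albumin was listed at 0 in all 8 libraries, which is not taken as its level in liver. The reason is not known, and the hepatocyte marker sums below hold no albumin. Whether other highly expressed genes were affected was not tested. The leptin receptor gene Lepr had 0.53 to 0.72 FPKM in db/db and 0.461 to 0.953 FPKM in control libraries, summed over its isoforms, which does not check the labels. On the second principal component, db1 lay at 27.6 and the other db/db libraries between -14.78 and -4.972.

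The bases directly before the start of Cyp26a1 and Retsat are shown because Cyp26a1 is known as a target of retinoic acid receptors and Retsat differed most between the groups. Both come from RefSeq (GRCm38.p6), on the strand of the gene, with 250 bases up to the annotated start. Cyp26a1 lies at chr19:37697558-37697807 (plus strand) and Retsat at chr6:72598352-72598601 (plus strand), where the locus in the deposited table already begins inside the window. Capitals mark the motif found.
Cyp26a1: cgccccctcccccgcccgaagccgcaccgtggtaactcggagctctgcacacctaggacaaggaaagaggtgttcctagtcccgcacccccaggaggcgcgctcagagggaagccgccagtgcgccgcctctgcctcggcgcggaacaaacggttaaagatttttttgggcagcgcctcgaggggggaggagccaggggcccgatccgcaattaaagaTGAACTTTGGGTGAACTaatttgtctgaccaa
Retsat: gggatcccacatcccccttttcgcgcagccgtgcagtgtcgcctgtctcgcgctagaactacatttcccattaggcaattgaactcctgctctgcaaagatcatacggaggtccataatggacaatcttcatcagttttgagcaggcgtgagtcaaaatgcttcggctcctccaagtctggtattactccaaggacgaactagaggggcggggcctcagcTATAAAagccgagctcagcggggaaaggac
The capitals in the Cyp26a1 window, at bases -32 to -16 from the start, are a direct repeat of the element AGTTCA with a spacer of 5 bases, read on the opposite strand. This spacing is the classical arrangement for receptors of retinoic acid. The search took AGGTCA or AGTTCA as well as GGGTCA or GGTTCA as direct repeats with spacers of 1, 2 or 5 bases, and the motif TATAAA, on both strands. A repeat with a spacer of 5 was found in 29 of 32851 mouse windows of this length (0.0883%). Repeats with spacers of 1 and 2 were found in 0.164% and 0.174% of all windows. In Retsat the capitals are TATAAA, at bases -30 to -25, a motif in 12.4% of all windows. Of the 13 windows searched for 8 of the genes, 1 of Rbp4 also held TATAAA, and these letters and repeats were not found in the other 10. A match of letters is no measure of binding.

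In FPKM as deposited, the db/db livers had less of both plasma carrier genes, Rbp4 and Ttr, and more Retsat and Dhrs4. Ranked by FPKM among all rows of a library, Rbp4 stood at 20 to 23 in db/db and 20 to 21 in control libraries. Ttr stood at 9 to 15 in db/db and 13 to 15 in control libraries, so by rank neither carrier gene was set apart as lower. Of the 9 genes, 2 were significantly higher and 2 significantly lower by limma (adjusted p under 0.05 over all tested genes), and 5 did not pass. Of all tested genes 16.0% were higher (1582) and 11.6% lower (1147), so these counts were near the background. In the same 4 genes the values of the groups did not overlap, against 17.3% of all tested genes that were higher and 12.1% that were lower without overlap. The median log2 fold change was -0.05 over the 9 genes and 0.04 over all tested genes, whose lower and upper quartiles were -0.21 and 0.30. None of the 9 genes passed an absolute log2 fold change above 1.5 with an unadjusted p under 0.05, as 2.75% of tested genes did. At a fold change above 1.5 with the same p, Retsat and Cyp26a1 passed as higher and Ttr as lower, among 10.1% of tested genes that were higher and 7.43% that were lower.

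**Figure D1:**
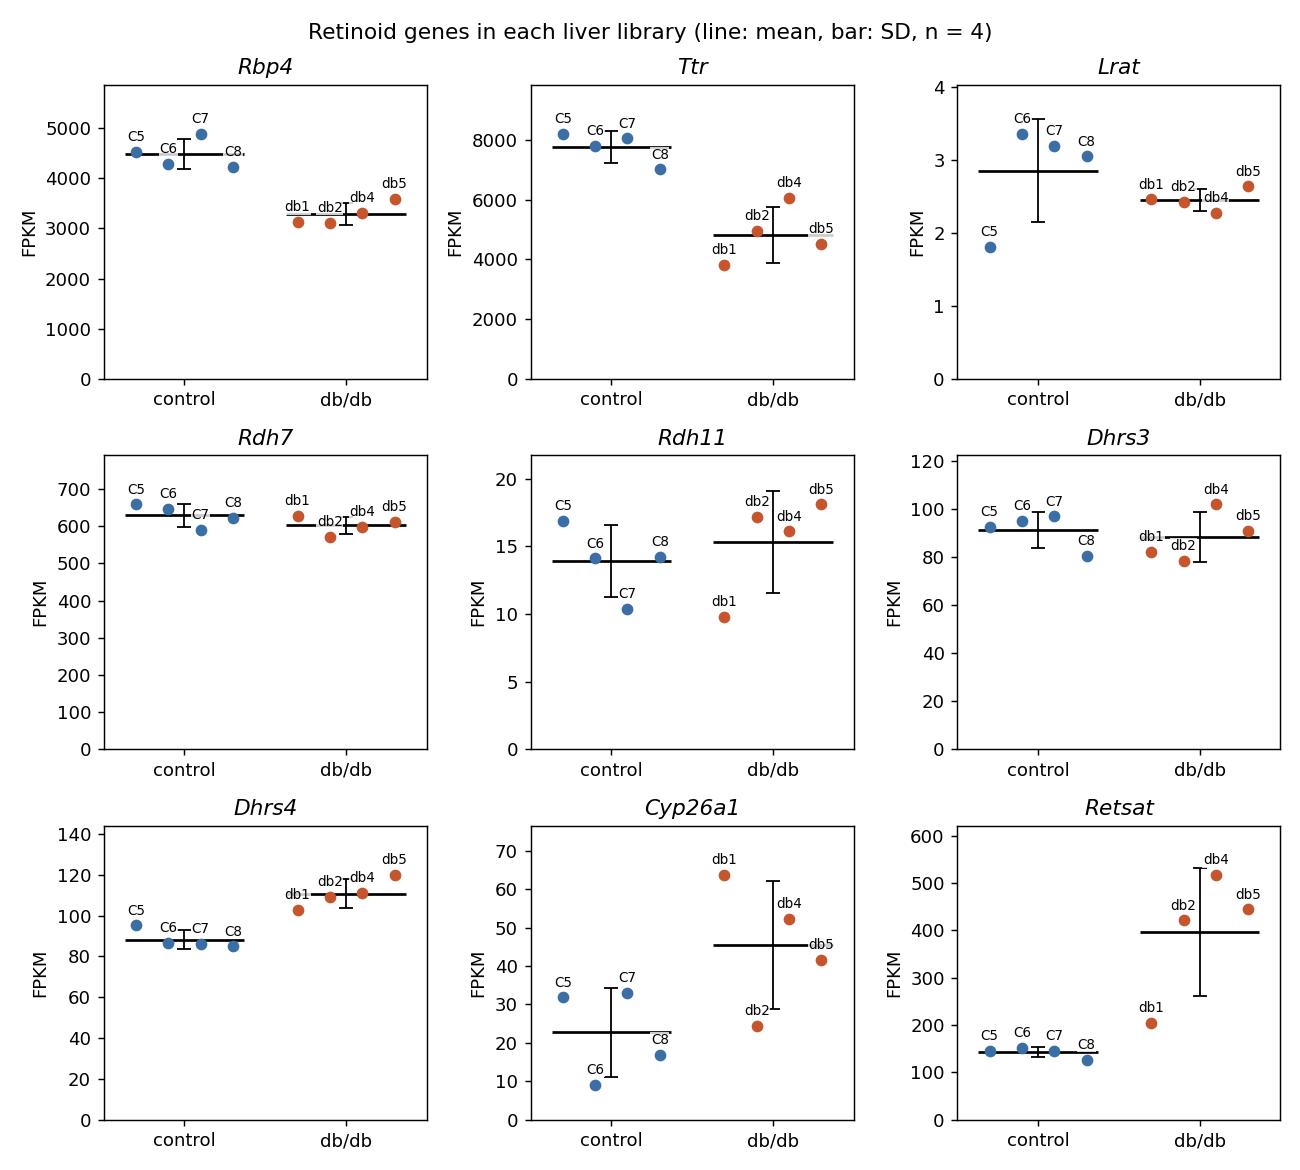
FPKM of the 9 retinoid genes in each library, with a linear axis from 0 for each gene, points for the 4 control (blue) and 4 db/db (orange) libraries, a line for the mean and a bar for the SD. The groups are apart for Rbp4 and Ttr (db/db lower) and for Dhrs4 and Retsat (db/db higher), and they overlap for the other 5.

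The genes for the carriers of retinol in plasma were the most highly expressed of the 9 genes and had lower FPKM in db/db livers. Rbp4 encodes the plasma retinol-binding protein (chromosome 19, 38116620 to 38125321, minus strand, mm10). Its level was 3126, 3119, 3306 and 3591 FPKM in db1, db2, db4 and db5, and 4528, 4298, 4890 and 4234 FPKM in C5, C6, C7 and C8. Every db/db library was below every control library. Rbp4 fell from 4487 ± 297 to 3285 ± 221 FPKM (mean ± SD, n = 4 per group), a log2 fold change of -0.45 on log2(FPKM + 1) (SE 0.11, limma adjusted p = 0.0135). The call was lost with quantile normalization (log2 fold change -0.07, adjusted p = 0.639), with no filter (0.0542) and without db2 (0.0517), and the adjusted p ranged from 0.00783 to 0.639 over 16 refits with limma.

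Ttr encodes transthyretin, the partner of RBP4 that also carries thyroxine, and lies on chromosome 18. It had 3803, 4955, 6046 and 4506 FPKM in db1, db2, db4 and db5, and 8204, 7799, 8051 and 7012 FPKM in C5 to C8. The highest db/db library, db4, stayed below the lowest control library, C8. The mean fell from 7766 ± 530 to 4828 ± 941 FPKM (log2 fold change of -0.70 with SE 0.15, limma adjusted p = 0.00681). The sign turned under quantile normalization (0.23, adjusted p = 0.248). In the other 15 refits with limma Ttr kept its call.

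Rbp4 and Ttr did not change in a fixed ratio in single libraries. Rbp4 over Ttr was 0.822, 0.629, 0.547 and 0.797 in db1, db2, db4 and db5, and 0.552, 0.551, 0.607 and 0.604 in C5 to C8. The ratio overlapped between the groups, with 3 of 4 db/db libraries above every control library and db4 below them all. The level of some other hepatocyte markers also differed. Of 12 tested markers 3 were lower (Apoa1, Ahsg and Hpx) and none was higher (11.6% and 16.0% over all tested genes), with a median log2 fold change of -0.29. Their summed level was 15758 to 18324 FPKM in db/db and 35849 to 41150 FPKM in control libraries, and without Apoa1, the gene of the main HDL protein, 14699 to 17264 and 22319 to 24843 FPKM. In these bulk samples fewer cells of a type and less RNA per cell cannot be told apart, and the part of the hepatocyte markers in the values of Rbp4 and Ttr was not tested.

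Lrat, the gene for the enzyme that esterifies retinol for storage, had the lowest level of the 9 genes and did not pass the test. Its level was 2.46, 2.43, 2.28 and 2.64 FPKM in db1, db2, db4 and db5, and 1.81, 3.36, 3.19 and 3.05 FPKM in C5 to C8. The db/db libraries lay within the range of the control libraries, where C5 stood below the other 3. The log2 fold change was -0.14 (SE 0.15, 95% interval -0.47 to 0.20, adjusted p = 0.533), with means of 2.45 ± 0.148 in db/db and 2.85 ± 0.706 FPKM in control livers. An antisense gene, Rbm46os, overlaps Lrat in GENCODE vM21, and the use of strand in counting is not given in the sources used here. Lrat relative to Dcn and to Reln, 2 of 18 stellate cell markers, overlapped between the groups as well (0.0251 to 0.0333 against 0.0224 to 0.0441 for Dcn, and 0.207 to 0.271 against 0.139 to 0.402 for Reln). Ratios to the other stellate cell markers were not computed.

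Of 15 tested stellate cell markers, 1 was higher (Rgs5, log2 fold change 0.94) and 2 were lower (Hand2, -0.65, and Des, -0.51). Over all tested genes 16.0% were higher and 11.6% lower. The median log2 fold change of the 15 was -0.19. Hand2, Gdf2 and Pth1r were lower without overlap between the groups, and Rgs5 was higher without overlap. The summed level of all 18 overlapped between the groups (208 to 295 FPKM in db/db, 253 to 331 FPKM in control libraries). Reln and Dcn stood at 10.4 ± 1.52 and 88.1 ± 9.71 FPKM in db/db and at 11.4 ± 2.40 and 79.3 ± 5.78 FPKM in control livers, and neither passed.

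Retsat had the largest fold change of the 9 genes. It encodes retinol saturase, an enzyme that saturates a double bond of retinol to give dihydroretinol, and lies on chromosome 6 (72598475 to 72608425, plus strand). Its level was 204, 421, 517 and 444 FPKM in db1, db2, db4 and db5, and 145, 151, 146 and 127 FPKM in C5 to C8. Every db/db library was above every control library, and db1 was the closest to them. Retsat rose from 142 ± 10.9 to 396 ± 135 FPKM (log2 fold change of 1.39 with SE 0.24, limma adjusted p = 0.00192). Without db1 the log2 fold change was 1.68. Of all tested genes 3.34% had a larger absolute log2 fold change. The call held in all 16 refits with limma, with log2 fold changes between 1.24 and 1.68. Of the 31-base words in its transcripts 83.6% were unique to Retsat among all GENCODE transcripts, and 15.8% were shared with Gm45053, an unclassified entry on the other strand.

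**Figure D2:**
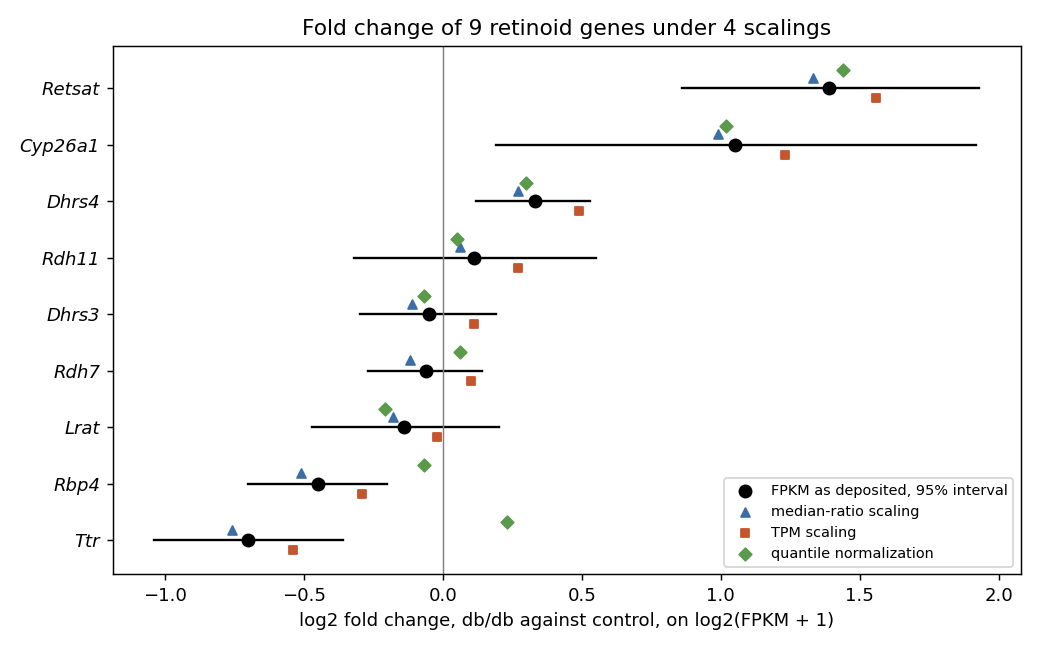
Log2 fold change of each of the 9 genes in db/db against control livers, on the log2(FPKM + 1) scale, as deposited (black, with the 95% interval of the limma fit) and after median-ratio scaling (blue), TPM scaling (orange) and quantile normalization (green). Retsat lies between 1.33 and 1.56 in the 4 scalings, and Ttr lies at -0.70 as deposited and at 0.23 after quantile normalization.

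Of the 4 genes among the 9 that interconvert retinol and retinal, 1 was higher and 3 did not pass. Of all tested genes 16.0% were higher and 11.6% lower. Dhrs4, which encodes a peroxisomal dehydrogenase and reductase acting on retinoids (chromosome 14, 55478758 to 55490338), had 103, 109, 111 and 120 FPKM in db1, db2, db4 and db5, and 95.2, 86.6, 86.0 and 84.9 FPKM in C5 to C8. The groups were apart, and C5 lay closest to the db/db libraries. Dhrs4 rose from 88.2 ± 4.72 to 111 ± 7.22 FPKM (log2 fold change of 0.33 with SE 0.09, limma adjusted p = 0.0241). The call was lost in 6 of 16 refits with limma, with adjusted p from 0.00181 to 0.0699 over all of them. These were median-ratio scaling (0.0685) and the fits without db2 (0.0562), db4 (0.0550), db5 (0.0699), C6 (0.0555) or C8 (0.0584).

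Rdh7, which encodes a microsomal retinol dehydrogenase of mouse liver, was the most highly expressed dehydrogenase of the 9 genes. It had 627, 572, 599 and 612 FPKM in db1, db2, db4 and db5, and 659, 646, 590 and 623 FPKM in C5 to C8. The groups overlapped (log2 fold change of -0.06 with SE 0.09, 95% interval -0.27 to 0.14, adjusted p = 0.649). The sign turned with TPM scaling (0.10) and quantile normalization (0.06). TPM scaling moved the median of all tested genes from 0.04 to 0.19, and Rdh7 was below this median with either. With quantile normalization that median was -0.01 and Rdh7 was above it. Of its 31-base words 79.7% were unique.

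Dhrs3, the gene of a retinal reductase, had 82.2, 78.5, 102 and 90.9 FPKM in db1, db2, db4 and db5, and 92.5, 95.2, 97.0 and 80.7 FPKM in C5 to C8. The ranges overlapped almost fully (log2 fold change -0.05, 95% interval -0.30 to 0.19, adjusted p = 0.763), and TPM scaling gave 0.11. Rdh11, which encodes another retinal reductase, had 9.77, 17.2, 16.1 and 18.1 FPKM in the db/db libraries and 16.9, 14.1, 10.4 and 14.2 FPKM in C5 to C8. Here db1 and C7 were low in their groups and the others overlapped (log2 fold change of 0.11 with SE 0.20, 95% interval -0.32 to 0.55, adjusted p = 0.703). The value was 0.30 without db1 and -0.01 without C7.

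Cyp26a1 encodes the hydroxylase that clears retinoic acid in the liver (chromosome 19, 37697808 to 37701528, plus strand). It had the widest relative spread within both groups and did not pass, whereas the study lists it as higher in db/db at its own threshold. Its level was 63.7, 24.4, 52.2 and 41.6 FPKM in db1, db2, db4 and db5, and 31.8, 9.12, 33.0 and 16.9 FPKM in C5 to C8. In db1, db4 and db5 it was above every control library, whereas db2 lay inside the control range. The means were 45.5 ± 16.7 and 22.7 ± 11.6 FPKM (log2 fold change of 1.05 with SE 0.39, 95% interval 0.19 to 1.92, limma adjusted p = 0.0695, exact permutation p = 0.114, 2-sided). The adjusted p was 0.0339 without db2 (log2 fold change 1.32), 0.0475 without C7 (1.28) and 0.0346 with TPM scaling (1.23), and it ranged from 0.0339 to 0.156 over 16 refits with limma. The window before this gene, printed above, is the 1 among those searched that held a repeat with a spacer of 5.

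For the 4 genes whose groups were apart the exact permutation test gave p = 0.0286, the smallest that 4 against 4 libraries allow. The order of mean levels was much the same in both groups. In control livers it ran Ttr (7766 FPKM), Rbp4 (4487), Rdh7 (630), Retsat (142), Dhrs3 (91.4), Dhrs4 (88.2), Cyp26a1 (22.7), Rdh11 (13.9) and Lrat (2.85). The library values of Dhrs3 and Dhrs4 overlapped there, as did those of Cyp26a1 and Rdh11, and other neighbours in the order were apart. In db/db livers Dhrs4 (111 FPKM) stood above Dhrs3 (88.3) and Cyp26a1 (45.5) above Rdh11 (15.3), and all neighbours were apart. The summed level of the 9 genes, of which Ttr and Rbp4 made up most, was 9374 ± 1116 FPKM in db/db and 13245 ± 783 FPKM in control livers, without overlap.

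Next to Rdh7 on chromosome 10 lie its close relatives Rdh1, Rdh9, Rdh16, Rdh16f1, Rdh16f2 and Rdh19, and within this cluster single genes differed between the groups in both directions. The sum of the cluster, most of which was Rdh7, did not separate the groups. Rdh16, a retinol dehydrogenase gene, had 64.8, 89.2, 93.5 and 94.1 FPKM in db1, db2, db4 and db5, and 21.2, 24.9, 15.1 and 17.3 FPKM in C5 to C8. It rose from 19.6 ± 4.30 to 85.4 ± 13.9 FPKM (log2 fold change of 2.08 with SE 0.17, limma adjusted p = 1.41e-05), with every db/db library far above every control library. Rdh16f2 had 20.0, 27.3, 40.0 and 51.8 FPKM in the db/db libraries and 117, 101, 103 and 95.3 FPKM in C5 to C8. It went the other way and fell from 104 ± 9.01 to 34.8 ± 14.0 FPKM (log2 fold change of -1.64 with SE 0.24, adjusted p = 0.000664). Rdh9 fell from 18.1 ± 4.87 to 8.25 ± 2.53 FPKM (log2 fold change of -1.05 with SE 0.21, adjusted p = 0.00463).

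The ratio of Rdh16 to Rdh16f2 within a library was 3.24, 3.27, 2.34 and 1.82 in db1, db2, db4 and db5, and 0.181, 0.246, 0.146 and 0.182 in C5 to C8. In every db/db library Rdh16 was thus the higher of the pair, and in every control library Rdh16f2 was. The sum of the 7 genes was 731 ± 31.8 FPKM in db/db and 773 ± 40.7 FPKM in control livers, with overlap. Rdh7 made up 82.5% ± 3.40 and 81.5% ± 0.959 of it, Rdh16 11.7% ± 1.79 and 2.52% ± 0.448, and Rdh16f2 4.71% ± 1.72 and 13.5% ± 0.931. The unique share of 31-base words was 76.8% for Rdh16 and 75.1% for Rdh16f2. For Rdh9 it was 28.0%, with 68.3% shared with Rdh16f1, and the deposited table gives Rdh1, Rdh9 and Rdh16f1 the same span (127759721 to 127792697), so the level of Rdh9 is uncertain. Rdh1 and Rdh19 stayed under 0.2 FPKM in every library, and Rdh16f1 reached at most 2.16 FPKM. These 3 were not tested.

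**Figure D3:**
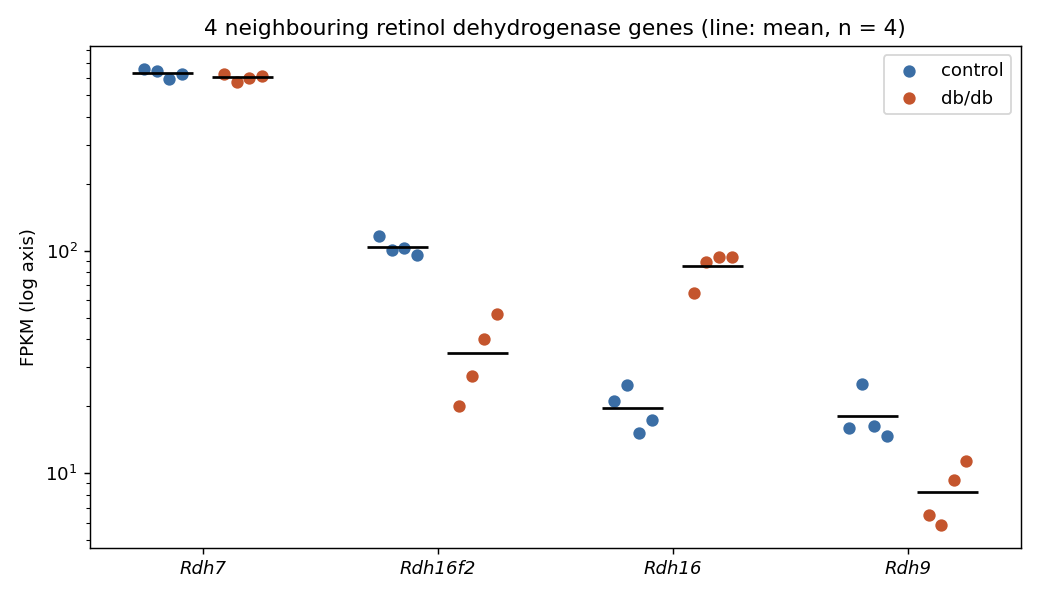
FPKM (log axis) of the 4 tested retinol dehydrogenase genes that neighbour each other on 1 chromosome, with a point for each control (blue) and db/db (orange) library and a line for the group mean. Rdh7 overlaps between the groups, Rdh16 is higher in every db/db library, and Rdh16f2 and Rdh9 are lower in every db/db library.

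The wider pathway was followed in 6 further lists with 55 genes, all in the table and 38 of them tested. Of these, 12 were higher, 5 were lower and 21 did not pass, with a median log2 fold change of 0.06. Over all tested genes 16.0% were higher and 11.6% lower, so that the 5 lower genes were near the background. Of the 17 genes that were not tested, 14 were under 1 FPKM in every library. The study lists some of these genes as changed in db/db, in part on these samples. Among them Rdh16 and Aldh1a1 (as well as Cyp26a1 above) are listed as higher, and Aox3 and Bco1 as lower. The counts are therefore not independent evidence of a direction. Genes of these lists that are named below without having passed, and Aldh8a1, were chosen after their values were seen.

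In the list of genes for retinal oxidation, all 5 that were tested passed, 4 higher and 1 lower (16.0% and 11.6% over all tested genes). The list was drawn up by gene name, and whether each enzyme, Aldh1a7 among them, acts on retinal was not examined. Aldh1a1, the gene of a cytosolic retinal dehydrogenase, had 1510, 1826, 1935 and 2104 FPKM in db1, db2, db4 and db5, and 619, 618, 542 and 585 FPKM in C5 to C8. It rose from 591 ± 36.5 to 1844 ± 250 FPKM (log2 fold change of 1.63 with SE 0.12, adjusted p = 8.11e-06). Aldh1a7, a close copy of Aldh1a1, rose from 116 ± 14.9 to 308 ± 24.9 FPKM, and 13.8% of its 31-base words were shared with Aldh1a1. The aldehyde oxidase gene Aox1 rose from 14.3 ± 0.750 to 24.2 ± 1.98 FPKM, whereas its neighbour Aox3 fell from 99.9 ± 10.6 to 3.49 ± 2.76 FPKM (log2 fold change of -4.66 with SE 0.31, adjusted p = 3.38e-06). Aldh8a1 rose from 133 ± 6.27 to 163 ± 11.1 FPKM (adjusted p = 0.0406). Aldh1a2 and Aldh1a3, the other classical retinal dehydrogenase genes, stayed under 0.3 FPKM. Relative to Adh1, an alcohol dehydrogenase gene that overlapped between the groups (1765 ± 240 and 1883 ± 327 FPKM), Aldh1a1 was at 1.05 ± 0.0483 in db/db and 0.322 ± 0.0668 in control livers.

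Of the genes for retinoid binding, uptake and carotenoid cleavage, 1 of 5 tested was lower and none was higher (11.6% and 16.0% over all tested genes). Bco1, which encodes the enzyme that cleaves beta-carotene to retinal, fell from 2.15 ± 0.250 to 0.953 ± 0.267 FPKM (adjusted p = 0.00363). Stra6l, a gene for a receptor of retinol-binding protein in mouse liver, stood at 26.5 ± 4.01 against 21.1 ± 1.47 FPKM (adjusted p = 0.0847).

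In the list of dehydrogenases, 2 of 11 tested genes were higher and 2 were lower (16.0% and 11.6% over all tested genes). Outside the chromosome 10 cluster, Dhrs7 was the only gene of this list to pass (17.5 ± 2.19 to 29.0 ± 7.70 FPKM, log2 fold change 0.66, adjusted p = 0.0214). Its groups overlapped, since db1 had 19.1 FPKM and C5 19.5 FPKM. The adjusted p was above 0.05 with no filter (0.0512) and without db4 (0.0525), db5 (0.0566), C7 (0.0517) or C8 (0.0539). Of the other retinoic acid hydroxylase genes, Cyp2c39, which in mouse encodes a retinoic acid hydroxylase, rose from 0.673 ± 0.644 to 14.4 ± 3.21 FPKM (log2 fold change of 3.25 with SE 0.24, adjusted p = 7.91e-06), with 22.0% of its 31-base words shared with Cyp2c38. Cyp2c39 reached the minimum for testing through the db/db libraries, since C5 (1.61 FPKM) was the only control library at 1 FPKM or more. Its call is therefore not independent of the group where it is high. Cyp26b1 stood at 1.36 ± 0.573 against 1.9 ± 0.914 FPKM (adjusted p = 0.453), and Cyp26c1 was listed at 0 in every library.

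For the synthesis and hydrolysis of retinyl esters, 3 of 9 tested genes were higher and none was lower (16.0% and 11.6% over all tested genes). All 3 encode carboxylesterases, a family with members that hydrolyse retinyl esters. Ces1g rose from 90.3 ± 7.90 to 175 ± 22.6 FPKM (log2 fold change 0.95, adjusted p = 0.000217), Ces1d from 469 ± 52.1 to 798 ± 240 FPKM (adjusted p = 0.0212) and Ces1e from 115 ± 2.27 to 167 ± 34.8 FPKM (adjusted p = 0.0268). The call of Ces1e was lost in 9 of 16 refits with limma, among them the fits without any 1 of db2, db4, db5, C5, C6, C7 and C8 (adjusted p = 0.0503 to 0.0759), and that of Ces1d in 3, among them those without db4 (0.0555) or C7 (0.0547). Pnpla3, whose human counterpart encodes a retinyl ester hydrolase, was under 0.11 FPKM in every control library and had 0.404, 3.24, 4.34 and 1.72 FPKM in db1, db2, db4 and db5, and was not tested.

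Of the 6 receptor genes, all tested, 2 were higher and 1 was lower (16.0% and 11.6% over all tested genes). Rxrg rose from 1.29 ± 0.368 to 3.95 ± 0.677 FPKM (log2 fold change 1.11, adjusted p = 0.000397) and Rarb from 1.22 ± 0.515 to 3.09 ± 1.15 FPKM (0.87, adjusted p = 0.0125). Rarb shares 32.1% of its 31-base words with its neighbour Top2b. Rarg fell from 2.17 ± 0.513 to 1.23 ± 0.213 FPKM (-0.50, adjusted p = 0.0262), a call lost in 5 of 15 refits with limma, namely TPM scaling (0.0544) and the fits without db1 (0.0630), db4 (0.0598), C6 (0.0678) or C7 (0.0655). Rxra, the most abundant of these receptors, stood at 37.2 ± 7.89 against 49.5 ± 6.66 FPKM (not significant, adjusted p = 0.0626).

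**Figure D4:**
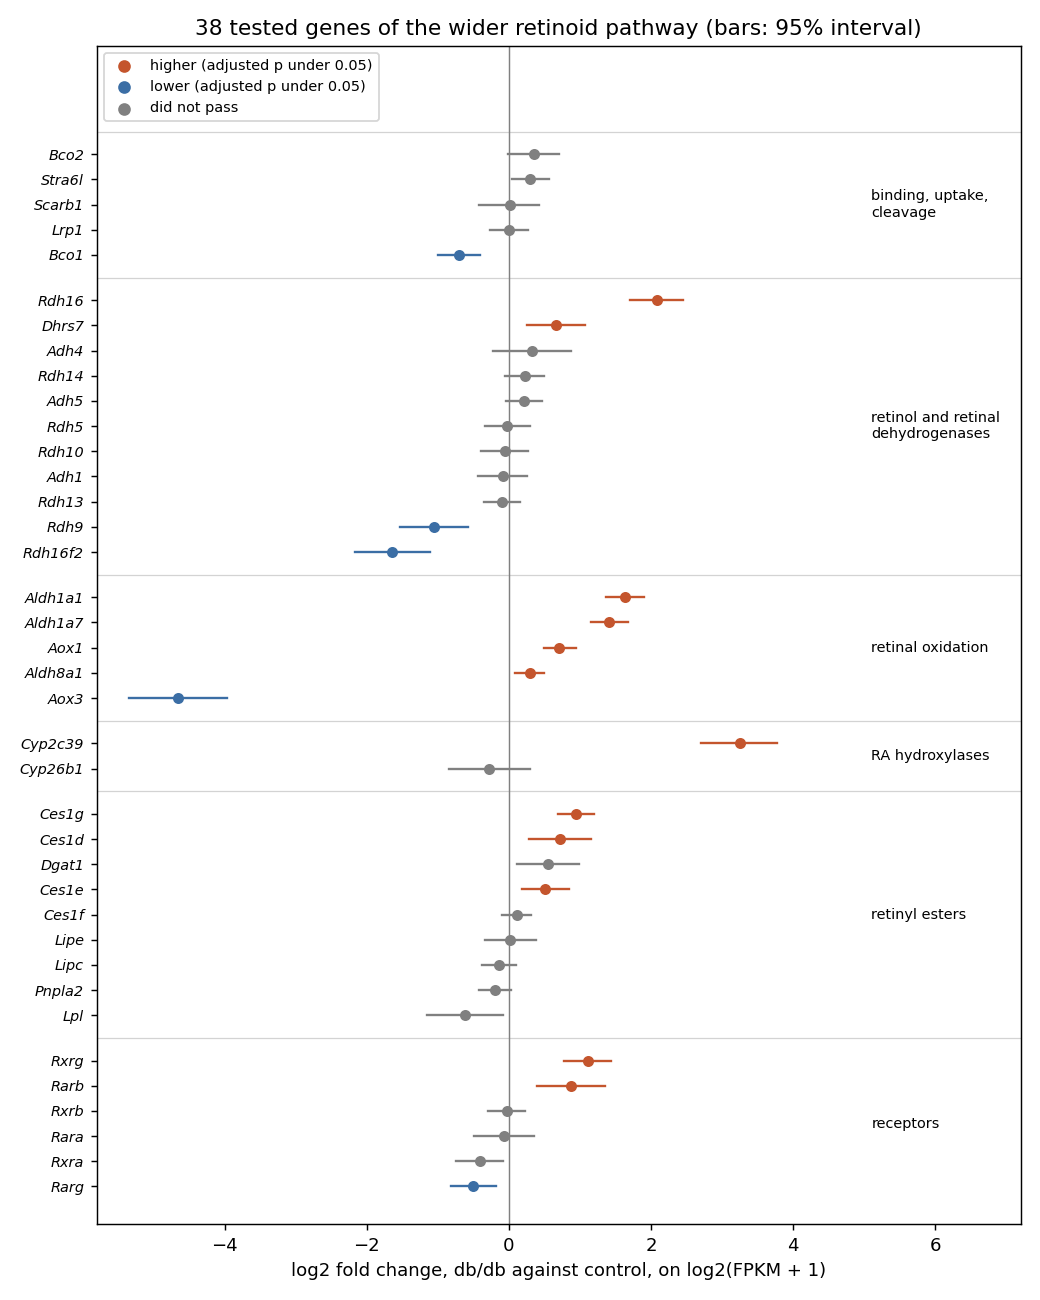
Log2 fold change (db/db against control livers, log2(FPKM + 1) scale) with its 95% interval for the 38 tested genes of the wider retinoid lists, grouped by role and colored by the limma call. Orange marks the 12 genes that were higher, blue the 5 that were lower and grey the 21 that did not pass.

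Markers of other cell types were read in the same libraries. Kupffer cell markers (8 genes, 3 of them lower) summed to 92.6 to 126 FPKM in db/db and 133 to 207 FPKM in control libraries, and sinusoidal endothelial markers (7 genes, 2 lower) to 64.7 to 74.8 and 79.4 to 108 FPKM. None of these markers was called higher, and over all tested genes 16.0% were higher and 11.6% lower. Marco, 1 of the 3 lower Kupffer cell markers, reached the minimum for testing only through the control libraries. It had at most 0.882 FPKM in db/db libraries. Among the endothelial markers Clec4g was lower without overlap between the groups. Lyve1 was higher without overlap (3.82 ± 1.55 against 2.09 ± 0.451 FPKM, limma adjusted p = 0.0528). Sums of bile duct and erythroid markers overlapped (35.7 to 53.0 against 29.7 to 51.6, and 255 to 330 against 256 to 725 FPKM), and so did the lymphocyte sums, at no more than 3.01 FPKM. Adipocyte markers summed to 2.20 to 8.86 FPKM in db/db and 0.489 to 3.38 FPKM in control libraries, with Lep at 0 in all libraries, Plin1 at 0 in every db/db library and Adipoq at no more than 0.860 FPKM. Retn, the resistin gene, was the only 1 of them tested and rose (0.108 ± 0.141 to 5.23 ± 3.01 FPKM). It reached the minimum for testing only through the db/db libraries, with at most 0.297 FPKM in control libraries. Pancreatic acinar markers summed to 1.81 to 2.83 FPKM in db/db and 15.1 to 21.3 FPKM in control libraries, nearly all of it Cela1 (2.30 ± 0.362 and 17.7 ± 2.88 FPKM), and 3 of the 6 were at 0 in every library. The part of these cell types in the retinoid genes was not tested.

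The genes most alike to each of the 9 were ranked by Pearson's r of log2(FPKM + 1) over the 8 libraries, which carry the difference between the groups within them. Closest to Retsat was Pdk4, a pyruvate dehydrogenase kinase gene (r = 0.997), with 1.71, 6.36, 8.12 and 8.19 FPKM in db1, db2, db4 and db5 and 0.596, 0.771, 0.713 and 0.452 FPKM in C5 to C8, followed by Pla2g4f (0.989) and Arl4a (0.987). In Pdk4, as in Retsat, db1 was the db/db library nearest to the controls, which follows from picking Pdk4 by its r. Pdk4 and Pla2g4f were under 1 FPKM in every control library, so they were tested only through the db/db libraries. Rbp4 was near to Uqcrh (0.990) and Bcor (0.988), and Ttr was followed by Tomm22 (0.988), Rps12 (0.984) and Gm10269 (0.982). Bcor was under 1 FPKM in every db/db library (0.669 to 0.981 FPKM), so it was tested only through the control libraries. For Dhrs4 the closest were Sdhb (0.992), which encodes a subunit of succinate dehydrogenase, Gsta4 (0.990) and Cmbl (0.987).

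In the 5 genes that did not pass, r was lower. Because r carries the difference between the groups, this contrast is tied to the calls and is no separate result. Cyp26a1 was followed by Hipk2 (0.959), Ptdss1 (0.953) and Asgr2 (0.947), and Rdh11 by Pxmp4 (0.951), 0610010K14Rik (0.944) and Cox7b (0.938). The genes nearest to Lrat were Diablo (0.938), Pcgf6 (0.915) and Setdb2 (0.907), and those nearest to Rdh7 were Cecr2 (0.934), Lipc (0.925) and P2ry2 (0.918). Dhrs3 had the weakest neighbours, Lcat (0.879), 1700021K19Rik (0.871) and Sf3b5 (0.869).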

How the data were processed

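Liver RNA of 4 db/db and 4 control libraries was analysed, with groups taken from the strain in the labels. Per the labels, rRNA-depleted RNA went into a stranded kit. According to the submitters' processing notes, the authors used cutadapt 1.9.3 for trimming, HISAT2 2.0.4 for alignment (mm10) and Cufflinks with Cuffdiff for gene levels. For both of these the version, and likewise the annotation and whether strand was used, is not given in the sources used here. Deposited values are FPKM per gene and library, as the authors computed them. Since they are no counts, count models were not applied. How reads common to close gene copies were shared out is not stated, which bears on the Rdh cluster. Of 22564 rows with values 6724 were at 0 in every library, and 1 row held none.

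FPKM were transformed to log2(FPKM + 1), which understates the changes of weakly expressed genes. All 9863 genes that reached 1 FPKM in 4 or more of the 8 libraries entered a limma fit (version 3.58.1, R 4.3.3) with a mean-variance trend (2-sided, without covariates) and Benjamini-Hochberg adjustment over all of them. The study's own t test was not repeated. Relative depth was read from genes under 0.3 FPKM, where ratios between libraries cluster at the relative value of 1 fragment. Unique sequence is the share of 31-base words of a gene's GENCODE vM21 transcripts found in no other gene's transcripts. Coordinates are 1-based on mm10, from the deposited table. Promoter windows are from RefSeq. The fit was tested on simulated data. Tables were handled in Python 3.11.15 with pandas 2.3.3, and figures were drawn with matplotlib 3.10.9.

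Alternatives were a pseudocount of 0.1, no filter, a filter at 5 FPKM, median-ratio, TPM and quantile scaling, no trend, array weights, leaving out each library, an exact permutation test and thresholds after the study (logFC above 1.5, unadjusted p under 0.05). The base of its logFC is not stated. Both log2 and a plain fold of 1.5 were used, the second chosen after seeing the data, since genes that the study lists as changed fall short of the log2 reading. The genes and lists were chosen with earlier results of these data known. Named genes were the 9 retinoid genes, up to 4 changed genes of each wider list with the smallest adjusted p, the close relatives of Rdh7, and the 3 genes most correlated with each of the 9. Tf, on the hepatocyte list, was not analysed here, and some genes that these rules name are not reported here.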

Additional observations from a re-analysis of the deposited data

Results flagged for a closer look

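Of 50 groups of 4 libraries examined, 4 held 1 library that stood apart from the others (Dixon's ratio of gap to range above its 95% critical value). By chance about 1 in 20 groups would. Dhrs4 had 95.2 FPKM in control C5, where the other control libraries held 84.9 to 86.6 FPKM. Rdh16 had 64.8 FPKM in db1 and 89.2 to 94.1 FPKM in the other db/db libraries. Rdh9 had 25.3 FPKM in C6 and 14.7 to 16.3 FPKM in the other control libraries. Ces1g had 209 FPKM in db5 and 163 to 164 FPKM in the other db/db libraries. Without C5 Dhrs4 kept its call, and Rdh16, Rdh9 and Ces1g kept theirs in all 16 refits with limma at an adjusted p under 0.05.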

How the results depend on the processing

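In 16 refits with limma, at an adjusted p under 0.05, Retsat kept its call in all, Ttr in all but quantile normalization, where its log2 fold change was 0.23, Rbp4 in 13 and Dhrs4 in 10. The threshold of the study gives no log base. Read as an absolute log2 fold change above 1.5 with an unadjusted p under 0.05, it ended the calls of all 4. Read as a fold change of 1.5, a reading added after the data were seen, it gave 2 higher (Retsat and Cyp26a1) and 1 lower (Ttr). This reading ended the calls of Rbp4 and Dhrs4 and added Cyp26a1, which had not passed in the main fit. The count of retinoid genes that were higher (2) was 1 with median-ratio scaling and 0 at the log2 threshold, and 1 to 3 when single libraries were left out. The count that were lower (2) was 1 with no filter, 0 with quantile normalization and 0 at the log2 threshold, and 1 to 2 when single libraries were left out. Leaving out db1 changed neither count. In the wider lists, 12 higher and 5 lower became 3 and 2 at the log2 threshold, 10 and 5 at a fold of 1.5, 18 and 5 with TPM scaling, 10 and 3 with the filter at 5 FPKM, and 8 to 12 and 4 to 6 when single libraries were left out. Among genes that did not pass, the sign turned for Rdh7 with TPM scaling (0.10) and quantile normalization (0.06), for Dhrs3 with TPM scaling (0.11) and between -0.12 and 0.00 when single libraries were left out, and for Rdh11 between -0.01 and 0.30 when single libraries were left out. The cause of these changes was not tested. Lrat was too low to be tested under the filter at 5 FPKM. No paired analysis was possible because the groups share only 1 replicate number, 5. Absolute depth is unknown, so the counting error of single values could not be given.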
